A study of Mus musculus with 10 samples.

Results

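The 10 genes described here are transcribed mainly by neutrophils and were chosen by name, with earlier results of these data known. They fall into 7 genes of the mature stage (S100a8, S100a9, Stfa2l1, Mmp8, Retnlg, Csf3r and Cxcr2) and 3 genes of the granule stage (Lcn2, Ngp and Camp). Every probe set that the platform annotation assigns to 1 of these symbols alone was taken, bright or dim. This gave 9 probe sets for 9 of the 10 genes, 1 each, among 18194 genes with a symbol in the whole series. Retnlg is not analysed here. Of the 9 probe sets, 8 lay in the upper 60% by mean level and entered the test over all probe sets, and Cxcr2 lay below it. No probe set of the 9 was at 0 on any array.

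The lungs came from 10 C57BL/6J mice (Jackson Lab) aged 2 weeks, with 1 Affymetrix Mouse 430 2.0 array per mouse. The 4 control mice lived in filtered air, apart from the others. The 6 smoke mice entered a cigarette smoke chamber together with their mother when 1 day old; daily exposure lasted 1 hour in the first 7 days and 2 hours in the next 7, at a mean particulate level of 90 mg per cubic metre. The comparison asked how lung gene expression differs after neonatal exposure to cigarette smoke. The labels give the sex as unknown and name no litter or array batch, so p-values reflect only how far these arrays spread. Since controls lived apart from the smoke mice, smoke cannot be told apart from housing or litter. In whole lung RNA, fewer neutrophils, less RNA per neutrophil and a change in other cells that transcribe these genes cannot be told apart.

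Neutrophils are made in the bone marrow and leave it for the blood, and the lung capillaries hold a large resident pool of them. During maturation the genes of granule proteins are switched on in waves and then switched off again, so that RNAs such as Ngp, Camp and Lcn2 mark immature cells. RNAs for the calcium-binding proteins S100a8 and S100a9, for surface receptors such as Cxcr2 and Csf3r, and in mice for Mmp8 and the stefin Stfa2l1 mark late and circulating cells. Lcn2 is also made by airway and alveolar epithelium under inflammatory stimuli.

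The 4 genes that fell after smoke and the 3 granule-stage genes are shown by the 250 bases before their RefSeq start (GRCm38.p6, 5′ to 3′ in the direction of the gene), so that the promoters of both stages can be read side by side. Capitals mark matches on either strand to the core of C/EBP sites, TTGCNNAA, or to the core of PU.1 sites, GAGGAA, which belong to the main families of factors of the granulocyte lineage; no match of one overlapped the other.
S100a8 (chr3:90668821-90669070, + strand): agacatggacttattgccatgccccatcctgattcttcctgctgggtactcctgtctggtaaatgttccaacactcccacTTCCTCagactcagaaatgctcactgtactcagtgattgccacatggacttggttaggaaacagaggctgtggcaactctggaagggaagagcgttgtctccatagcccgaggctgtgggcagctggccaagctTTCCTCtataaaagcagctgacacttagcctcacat
S100a9 (chr3:90695722-90695971, - strand): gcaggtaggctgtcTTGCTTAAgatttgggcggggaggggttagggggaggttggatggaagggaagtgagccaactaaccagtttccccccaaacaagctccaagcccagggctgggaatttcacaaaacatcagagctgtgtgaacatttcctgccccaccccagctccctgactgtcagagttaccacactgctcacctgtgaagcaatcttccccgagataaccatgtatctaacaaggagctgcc
Stfa2l1 (chr16:36156561-36156810, + strand): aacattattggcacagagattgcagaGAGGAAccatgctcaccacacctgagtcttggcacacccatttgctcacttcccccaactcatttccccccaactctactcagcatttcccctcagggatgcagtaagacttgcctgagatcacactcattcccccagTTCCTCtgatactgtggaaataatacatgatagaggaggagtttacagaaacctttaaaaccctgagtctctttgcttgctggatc
Mmp8 (chr9:7558179-7558428, + strand): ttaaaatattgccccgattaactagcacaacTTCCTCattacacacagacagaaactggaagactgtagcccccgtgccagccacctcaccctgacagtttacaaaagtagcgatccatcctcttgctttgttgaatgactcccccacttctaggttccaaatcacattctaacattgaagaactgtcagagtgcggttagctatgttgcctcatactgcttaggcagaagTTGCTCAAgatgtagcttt
Lcn2 (chr2:32387740-32387989, - strand): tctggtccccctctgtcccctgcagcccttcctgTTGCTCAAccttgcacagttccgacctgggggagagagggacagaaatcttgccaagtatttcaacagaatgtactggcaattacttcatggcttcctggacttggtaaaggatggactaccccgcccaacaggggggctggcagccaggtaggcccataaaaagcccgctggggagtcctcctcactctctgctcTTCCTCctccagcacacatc
Ngp (chr9:110419558-110419807, + strand): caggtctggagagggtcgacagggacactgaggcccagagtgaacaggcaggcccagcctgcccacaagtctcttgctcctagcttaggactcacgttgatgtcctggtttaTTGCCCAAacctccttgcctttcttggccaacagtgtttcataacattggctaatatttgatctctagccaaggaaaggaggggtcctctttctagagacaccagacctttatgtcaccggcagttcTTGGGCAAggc
Camp (chr9:109849457-109849706, - strand): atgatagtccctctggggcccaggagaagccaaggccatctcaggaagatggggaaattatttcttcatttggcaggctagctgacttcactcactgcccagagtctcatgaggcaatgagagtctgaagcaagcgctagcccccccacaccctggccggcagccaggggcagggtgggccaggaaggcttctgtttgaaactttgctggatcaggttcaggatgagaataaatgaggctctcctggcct
All 10 genes had a promoter in the RefSeq table. The C/EBP core was found in 5 of them, against 9.56% of 32851 windows of the same length, and the PU.1 core in 6, against 23.3%. Both stages hold matches: Ngp had 2 C/EBP cores, 138 and 11 bases before the start, and Mmp8 had 1, 19 bases before it. Camp had a match to neither. The core of interferon-stimulated response elements, GAAA, any 2 bases and GAAA, was in 0 of the 10 and in 2.98% of all windows. S100a8 and S100a9 are neighbours on chromosome 3, with 22.6 kb between them, and Camp and Ngp lie 570.4 kb apart on chromosome 9. A match describes letters and shows no binding.

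4 of the 7 mature-stage genes were lower in smoke lungs, and no granule-stage gene passed the test. Of the 5 mature-stage genes tested, 4 fell (S100a8, S100a9, Stfa2l1 and Mmp8), none rose, and Csf3r did not pass. Of the 3 granule-stage genes none passed in either direction, and none had an unadjusted p under 0.05. Over all 27022 probe sets tested, 0.54% were lower and 0.0111% higher at the same threshold (limma, Benjamini-Hochberg adjusted p under 0.05). Because earlier results of these data were known when the members were chosen, their share is not an independent test. Of 14 other genes of mature neutrophils tested, none passed. The median log2 change was -1.60 over the 5 mature-stage and -0.77 over the 3 granule-stage probe sets, against 0.02 over all probe sets. All 4 genes that fell were lower on each of the 6 smoke arrays than on any control array, as were 2.83% of all probe sets tested. The difference between the stages was not tested. Without control replicate 1, 2 or 3 in turn the number of members that fell was 2, 1 and 2, and S100a9 was among them each time.

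**Figure D1:**
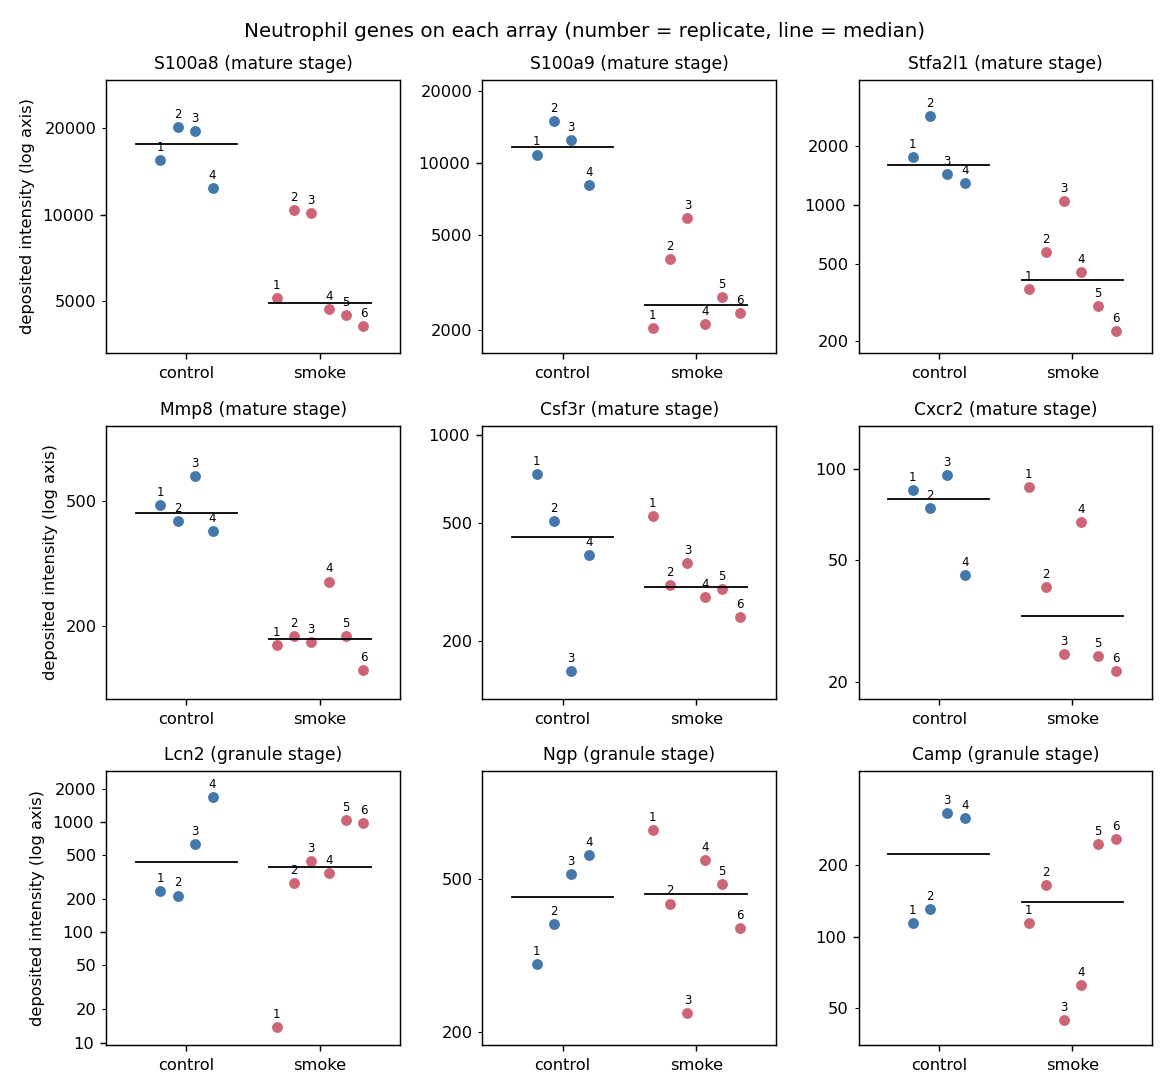
Deposited intensity (log axis, a separate range in each panel) of the 9 measured neutrophil genes on 4 control and 6 smoke arrays; each point is 1 mouse, the number beside it is its replicate and the line is the group median. S100a8, S100a9, Stfa2l1 and Mmp8 have no smoke point as high as a control point, while the groups of the other 5 genes overlap.

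S100a9, which pairs with S100a8 to form calprotectin, an abundant cytosolic protein of neutrophils, showed the lowest adjusted p of the members. Its deposited intensity was 10877, 15006, 12538 and 8129 on control arrays 1 to 4. On the smoke arrays it ran from 2029 through a median of 2554 to 5902. The groups were apart, and smoke array 3 was the smoke array nearest the controls. The quantile-normalized log2 level averaged 13.53 ± 0.30 (SD, n = 4) for controls and 11.53 ± 0.57 (SD, n = 6) with smoke. The fall was 3.99-fold, a log2 change of -1.995 ± 0.277 (SE; limma, adjusted p = 0.00423). It passed the threshold in every alternative setting, with an adjusted p of at most 0.0316.

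S100a8, the partner subunit, had intensities of 15486, 20111, 19556 and 12334 in controls and a smoke range of 4107 to 10336 with a median of 4918. Smoke arrays 2 and 3 were the highest of their group and still below control array 4, the lowest control. Its log2 level went from 14.12 ± 0.24 (SD, n = 4) to 12.52 ± 0.50 (SD, n = 6), a log2 change of -1.60 ± 0.24 (SE; limma, adjusted p = 0.00777), or 3.04-fold. The call was lost with the values as deposited (adjusted p = 0.0597), with median centring (adjusted p = 0.0880) and without control replicate 2 (adjusted p = 0.0519).

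The measured difference between the subunits was compared within arrays. On each array the log2 level of S100a8 minus that of S100a9 was 0.47 to 0.66 in controls and 0.79 to 1.18 after smoke, without overlap. The difference between the groups was 0.39 (exact two-sided permutation p = 0.00952, in a comparison chosen after the values were seen), and with the values as deposited it was 0.48 (exact p = 0.0238). Only the change between groups can be read from this, since different probe sets respond differently to the same amount of RNA. The control intensities of S100a8 stood close to the brightest probe set of the control arrays, at 21896 to 28304, and whether its signal was compressed there was not tested.

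Stfa2l1 belongs to the stefin A cluster of cysteine protease inhibitors, which is expanded in mice. Its intensity was 1768, 2870, 1448 and 1294 in controls, against 226 to 1044 after smoke with a median of 412.4. Smoke array 3 was again the highest of its group. The log2 change was -1.99 ± 0.39 (SE; limma, adjusted p = 0.0469), from 10.76 ± 0.50 (SD, n = 4) to 8.77 ± 0.77 (SD, n = 6), or 3.97-fold. This call rested close to the threshold: it ended in 8 of the 10 fits that each left out 1 array, with no filter (adjusted p = 0.117), without a variance trend (adjusted p = 0.0619) and without smoke arrays 1 and 2 (adjusted p = 0.0539). Near-identical copies of the cluster can share probes, so which stefin the probe set reads is uncertain.

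Mmp8, the neutrophil collagenase, had intensities of 485.5, 430.4, 597.8 and 399.9 in controls. The smoke arrays lay between 145.3 and 277.6 with a median of 182.2, and smoke array 4 was the highest. Among the genes that fell it had the narrowest spread after smoke, with log2 levels of 8.90 ± 0.28 (SD, n = 4) and 7.52 ± 0.30 (SD, n = 6). It fell 2.62-fold (log2 change -1.39 ± 0.22, SE; limma, adjusted p = 0.0128). The call was lost without control replicate 1, 2 or 3 (adjusted p = 0.0655, 0.0607 and 0.0802).

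The mature-stage members also include a pair of surface receptors. Csf3r, the receptor for granulocyte colony-stimulating factor, had intensities of 736.4, 508.9, 157.5 and 391.2 in controls and of 240.9 to 527.9 after smoke, with a median of 305.2. The smoke values lay inside the control range. The log2 change was -0.26 ± 0.38 (SE; limma, adjusted p = 0.835), with a 95% interval of -1.08 to 0.56, and without control replicate 1 it was 0.03.

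Cxcr2, the receptor that draws neutrophils along CXC chemokine gradients, was dim throughout, with intensities of 84.9, 74.5, 95.3 and 44.7 in controls. After smoke it ran from 21.7 to 87.1 with a median of 32.8. Smoke arrays 3, 5 and 6 were the lowest, at 24.7, 24.2 and 21.7, and smoke arrays 1 and 4 were within the control range. The log2 difference was -0.97 (two-sided exact permutation p = 0.0333; a design of 4 and 6 arrays cannot go below 0.00476). With all probe sets in the fit its adjusted p was 0.464 (limma), so it is not counted as lower. With the values as deposited the exact p was 0.0905, in the 10 fits without 1 array it was 0.0238 to 0.0714 and over 0.05 in 6, and with the floor at the 25th percentile the difference was -0.52 (exact p = 0.0333).

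**Figure D2:**
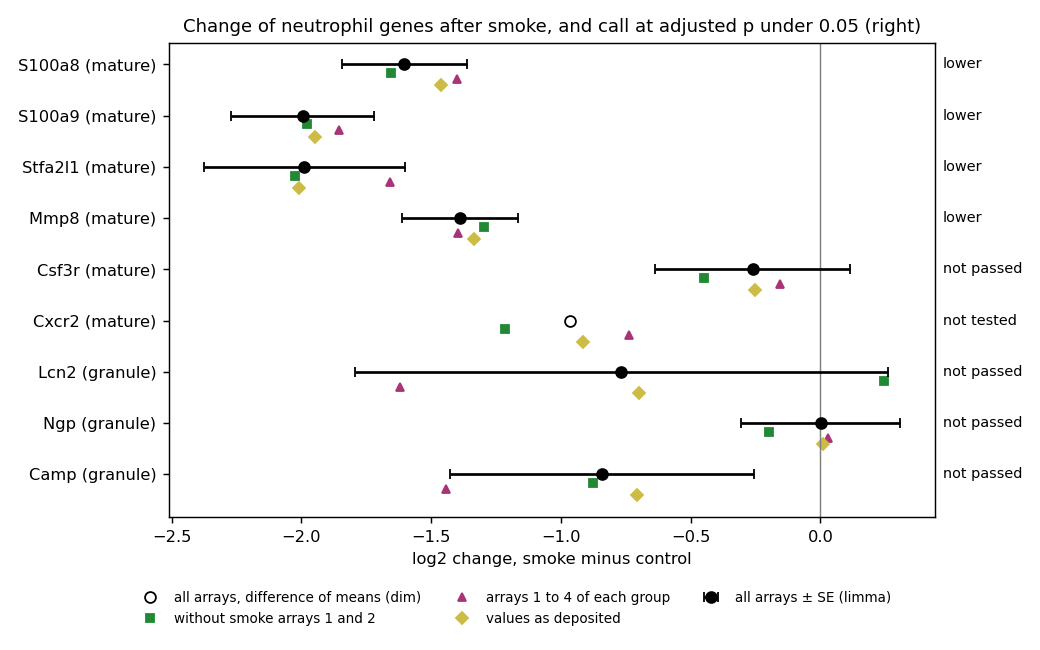
Log2 change, smoke minus control, of the 9 measured neutrophil genes, with 1 SE from limma for the 8 tested over all arrays (black) and the values without smoke arrays 1 and 2, with arrays 1 to 4 of each group and with the values as deposited (coloured, no error shown). S100a8, S100a9, Stfa2l1 and Mmp8 lie between -1.39 and -1.995 over all arrays, whereas Lcn2 runs from -1.62 with arrays 1 to 4 to 0.24 without smoke arrays 1 and 2.

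Among the granule-stage genes, Ngp, a neutrophil granule protein of the cystatin and cathelicidin superfamily, had the smallest change. Its intensities were 299.8, 381.9, 517.5 and 580 in controls and 224.3 to 672.4 after smoke, with a median of 459.05 close to the control median of 449.7. The log2 change was 0.00 ± 0.31 (SE; limma, adjusted p = 0.9996), with a 95% interval of -0.67 to 0.67. That interval does not reach the falls estimated for the 4 mature-stage genes.

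Camp, the cathelicidin that gives rise to the antimicrobial peptide CRAMP, had intensities of 114, 131.3, 334.1 and 315.9 in controls. After smoke it ran from 44.4 to 258.7 with a median of 139.65, so that the groups overlapped. The log2 change was -0.84 ± 0.59 (SE; limma, adjusted p = 0.647), with a 95% interval of -2.12 to 0.44 that takes in both no change and a fall as large as that of S100a9.

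Lcn2, the siderophore-binding lipocalin of secondary granules, was the most variable member. It had intensities of 235.6, 215.7, 629.5 and 1684 in controls, and 13.9 to 1038 after smoke with a median of 391.75. On smoke array 1 it lay below the floor used for dim values, an intensity of 15.8. The log2 change was -0.77 ± 1.03 (SE; limma, adjusted p = 0.822), with a 95% interval of -3.01 to 1.47. Without smoke replicate 1 it was 0.07, and without smoke arrays 1 and 2 it was 0.24, so its direction rested on that array.

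The stage means ordered the arrays differently within each group. The mean log2 deviation from the control mean over the 6 measured mature-stage genes was -0.93 to -1.80 on the smoke arrays, all below the control range of -0.37 to 0.25. Over the 3 granule-stage genes the smoke arrays ran from -1.88 to 0.47 and the controls from -0.73 to 0.90, with wide overlap. Smoke arrays 5 and 6 were the lowest of all arrays in the mature-stage mean, at -1.61 and -1.80, and the highest smoke arrays in the granule-stage mean, at 0.47 and 0.36. Control arrays 1 and 2 were the highest controls for the mature stage, at 0.21 and 0.25, and the lowest for the granule stage, at -0.73 and -0.66. The 3 granule-stage genes did not share this order, and Lcn2 weighed most in their mean. Its SD over the smoke arrays was 2.18, against 1.17 for Camp and 0.55 for Ngp. Smoke array 1 had the lowest granule-stage mean, yet Ngp was highest there, at a log2 level of 9.43, against 8.89 and 8.56 on smoke arrays 5 and 6. These means describe the arrays and were not tested.

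**Figure D3:**
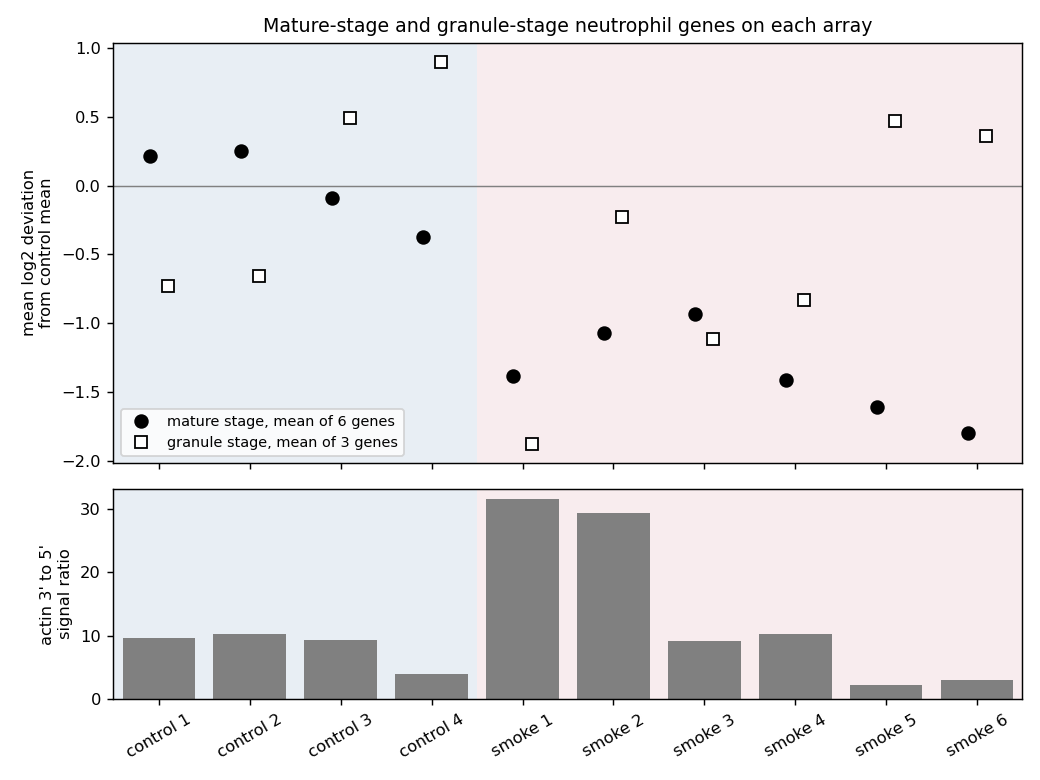
Upper panel: mean log2 deviation from the control mean of the 6 mature-stage (filled circles) and 3 granule-stage genes (open squares) on each array; lower panel: ratio of the actin 3′ to 5′ probe set signals on the same arrays. The mature-stage mean is lower on every smoke array than on any control, the granule-stage mean overlaps, and the actin ratio is highest on smoke arrays 1 and 2, at 31.6 and 29.4.

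The 3′ to 5′ signal ratios and other measures also differed among these arrays, while RNA integrity itself was not measured. The actin 3′ to 5′ ratio, which rises as RNA is shortened, was 3.96 to 10.4 in controls, 31.6 and 29.4 on smoke arrays 1 and 2, 9.26 and 10.3 on smoke arrays 3 and 4, and 2.18 and 2.98 on smoke arrays 5 and 6. The Gapdh 3′ to 5′ ratio did not give the same order: it was 4.82 to 5.89 in controls, 4.76 on smoke array 1, 9.16 on smoke array 2, 5.94 and 3.68 on smoke arrays 3 and 4, and 1.40 and 2.13 on smoke arrays 5 and 6. The arrays with the highest Lcn2, control 4 and smoke 5 and 6, were those with the lowest actin ratios, and the array with the lowest Lcn2, smoke 1, had the highest actin ratio but a Gapdh ratio below every control. In a fit that adjusted for the log2 actin ratio the change of Lcn2 was -0.51 (adjusted p = 0.748) and that of S100a9 was -2.02 (adjusted p = 0.00190), and 4 members were lower. Xist, a transcript of female cells, was high on control arrays 2 and 4 and on smoke arrays 5 and 6, and with its level as a covariate 4 members were lower. The falls of S100a8, S100a9 and Mmp8 were called without smoke arrays 1 and 2, at log2 changes of -1.65, -1.98 and -1.30, and with arrays 1 to 4 of each group, at -1.40, -1.85 and -1.40. Arrays 1 to 4 leave out smoke arrays 5 and 6, the smoke arrays with high Xist and the lowest actin ratios. The tissue label fitted its markers: the alveolar epithelial markers summed to intensities between 98740 and 118672 on control arrays and between 94583 and 147551 on smoke arrays, with a median log2 change of 0.01 over the 10 tested. The deposited values share a trimmed mean of 500.0 on each array.

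Other neutrophil genes were read beside all 13382 genes tested (1 probe set per gene), of which 0.702% were lower and 0.0224% higher. An unadjusted p under 0.05 was found for 10.2% of all genes tested. Among 12 surface receptor genes tested, 1 fell and 11 did not pass. Of the 12, 3 had an unadjusted p under 0.05 and 10 had values below zero. Their median log2 change was -0.38, against 0.06 over all genes. The 1 was Fcgr4, an activating receptor for IgG on neutrophils and monocytes. Its intensities were 599.4 to 872 in controls and 306.1 to 429 after smoke, without overlap, with a log2 change of -1.06 ± 0.19 (SE; limma, adjusted p = 0.0226). The call was lost in 6 of the 10 fits without 1 array (adjusted p up to 0.137). Of 14 other genes of mature neutrophils none passed, 4 had an unadjusted p under 0.05 and 11 had values below zero, with a median of -0.21. Those with the smallest p were Stfa3, another stefin of the cluster, at -1.44 ± 0.36 (adjusted p = 0.155), Wfdc21, at -1.04 ± 0.29 (adjusted p = 0.214), and G0s2, an inhibitor of lipolysis, at 0.89 ± 0.30 (adjusted p = 0.353). Stfa3 passed with array weights (adjusted p = 0.0432), and adjusting for the actin ratio Stfa3 passed at -1.50 (adjusted p = 0.0298), Wfdc21 at -1.09 (adjusted p = 0.0399) and G0s2, in the opposite direction, at 0.81 (adjusted p = 0.0154). With arrays 1 to 4 of each group G0s2 was higher at 1.30 (adjusted p = 0.00187). These settings also called more of all probe sets than the main test, with 146 lower and 3 higher. The numbers were 282 and 60 with array weights, 439 and 200 with the actin ratio, and 635 and 555 with arrays 1 to 4.

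Genes of the further granule lists, which leave out the collagenase Mmp8, showed no call either. A place in these lists does not show that a protein is stored in granules. Of 5 annotated genes listed with primary granules, which form earliest, only Ms4a3 was bright enough to be tested, at 0.14 ± 0.29 (adjusted p = 0.893). The dim ones were Mpo, Elane, Prtn3 and Ctsg, and the intensity of Elane, neutrophil elastase, was 57.2 to 134.9 in controls and 27.6 to 224.6 after smoke. Of 9 other tested genes listed with secondary and tertiary granules none passed, 2 had an unadjusted p under 0.05 and 8 had values below zero. Their median log2 change was -0.40. The smallest p-values were those of Cybb, the catalytic subunit of the NADPH oxidase, at -1.21 ± 0.44 (adjusted p = 0.396), Chil3, which alveolar macrophages also express, at -0.40 ± 0.17 (adjusted p = 0.464), and Padi4, which citrullinates histones, at 0.89 ± 0.42 (adjusted p = 0.507). Cybb passed with arrays 1 to 4 of each group, at -1.75 (adjusted p = 0.0130), and with the actin ratio as a covariate, at -1.08 (adjusted p = 0.0176), settings that called more of all probe sets.

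**Figure D4:**
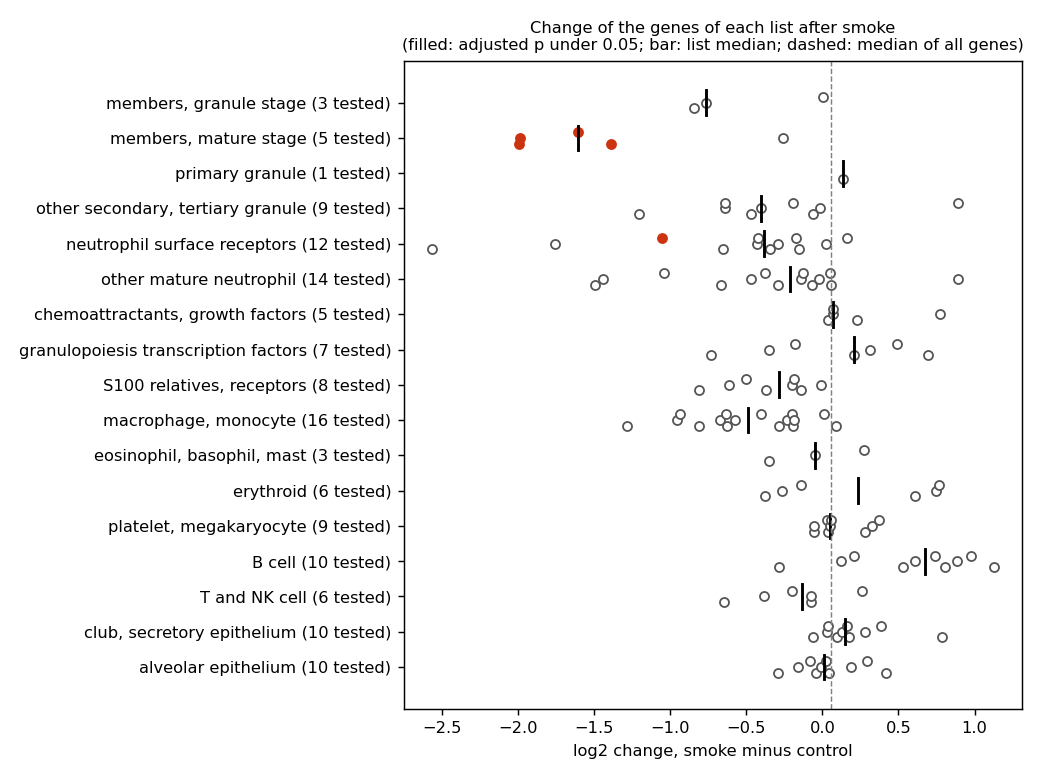
Log2 change, smoke minus control, of each tested gene (circles, filled where the adjusted p was under 0.05) in lists of neutrophil genes and of markers of other cell types, with the list median (bar) and the median of all genes (dashed line, 0.06). Among the lists drawn, which leave out the interferon genes, filled circles occur for the mature-stage members, 4 of 5, and the neutrophil surface receptors, 1 of 12.

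Genes that recruit or produce neutrophils did not pass. Of 5 chemoattractants and growth factors tested 2 had an unadjusted p under 0.05, and the smallest p-values were those of Cxcl12, which retains neutrophils in the marrow, at 0.78 ± 0.22 (adjusted p = 0.225), Cxcl15, the lung chemokine lungkine, at 0.23 ± 0.10 (adjusted p = 0.468), and Cxcl1, a CXCR2 ligand, at 0.07 ± 0.25 (adjusted p = 0.940). The other 7 of the list, among them Cxcl2, Cxcl5 and Csf3, were too dim to be tested. Of 7 transcription factors of granulopoiesis none passed and 1 had an unadjusted p under 0.05, with Cebpd at -0.73 ± 0.27 (adjusted p = 0.396), Spi1, which encodes PU.1, at 0.49 ± 0.27 (adjusted p = 0.563) and Cebpa at 0.70 ± 0.39 (adjusted p = 0.564). Cebpd passed with arrays 1 to 4 of each group, at -1.05 (adjusted p = 0.00979), and with the actin ratio as a covariate, at -0.65 (adjusted p = 0.00667), and Cxcl12 with array weights, at 0.86 (adjusted p = 0.0434). Of 8 relatives and receptors of S100a8 and S100a9 none passed, 1 had an unadjusted p under 0.05 and all 8 had values below zero, led by S100a4 at -0.81 ± 0.25 (adjusted p = 0.288), Cd36 at -0.61 ± 0.28 (adjusted p = 0.499) and S100a13 at -0.50 ± 0.31 (adjusted p = 0.595). With arrays 1 to 4 of each group Cd36 passed at -0.995 (adjusted p = 0.00554) and S100a13 at -0.88 (adjusted p = 0.0379). With arrays 1 to 4, 635 of all probe sets were lower and 555 higher, against 146 and 3 in the main test.

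Markers of other cells in lung tissue and blood were read in the same fit. Of 16 macrophage and monocyte markers none passed, with a median log2 change of -0.49, 14 values below zero and 2 unadjusted p-values under 0.05; their summed intensity was 43282 to 61537 in controls and 40221 to 72204 after smoke. None passed among 6 erythroid (median 0.23), 9 platelet (0.05), 3 eosinophil, basophil and mast cell (-0.05), 10 B cell (0.67), 6 T and NK cell (-0.14) and 10 club and secretory epithelial markers (0.15); 6 of the B cell markers and 1 erythroid marker had an unadjusted p under 0.05. No marker of these lists was at 0. Type I interferon genes were also lower after smoke. Of 20 tested, 17 fell and 3 did not pass, and the summed intensity of the list was 61597 to 93597 in controls and 12637 to 19723 after smoke. The part of these differences in the fall of the neutrophil genes was not tested.

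The genes most like S100a9 across the 10 arrays included other members. Likeness was measured as the root mean square difference between log2 profiles, each centred on its own mean, over 13381 other genes. S100a8 ranked first at 0.23 and Stfa2l1 next at 0.28, against 1.07 for a flat profile. They were followed by the interferon-induced genes Oas2 at 0.37 and Trim12c at 0.37, and by Stfa3 at 0.38, while Mmp8 had rank 29. The measure takes in the difference between the groups, so genes with a fall of like size rank near S100a9. The log2 changes of Oas2 and Trim12c were -2.08 and -2.04. Likeness within the groups was not measured. For Lcn2 the 5 nearest genes were Ccpg1os, Etv5, Gstt3, Max and S100g, at 0.52 to 0.64 against 1.75 for a flat profile, and the nearest member was Camp, at rank 1604. For Camp the 5 nearest were Tspan11, Tapbpl, H2-DMa, Tecrl and Lap3, at 0.43 to 0.52 against 1.02, and the nearest member was Ngp, at rank 3404.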

How the data were processed

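Total lung RNA was extracted with Trizol, labelled and hybridised to 1 array per mouse, per the labels' protocols. Each deposited file holds the authors' linear intensity of every probe set; which program made it is not given in the sources used here. After replacing the single 0 by the smallest value above it, intensities were put on the log2 scale and quantile normalized, with the 10th percentile (an intensity of 15.8) as floor. Of 45101 probe sets, 64 controls were left out and the upper 60% by mean log2 level, 27022, were tested with limma 3.58.1 (trend) in R 4.3.3, with Benjamini-Hochberg adjustment and a threshold of 0.05, two-sided. Other genes were represented by their brightest tested probe set with 1 symbol. Without detection calls, dim probe sets have no stated background, and 10 arrays limit the precision. On simulated arrays with the spreads of the 27022 probe sets, 72% of those lowered by 2 on the log2 scale and 16% of those lowered by 1 were recovered.

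The members, lists and tests were chosen with earlier results of these data known. Named by rule were all members, list genes that passed (up to 6) or else the 3 with the smallest p, and the 5 genes nearest in profile to S100a9, Lcn2 and Camp. Markers of other cells are given as counts. Alternatives covered normalization, floor, filter, variance model, array weights, covariates, omitted arrays, probe sets and the selection rule of the submitters, run as 16 of 24 pairs with a 1.5-fold change and an unadjusted p. Deviations of control and smoke arrays with the same replicate number correlated at -0.07 to 0.17. These correlations cannot show whether such arrays shared a litter or batch. No 2 arrays held identical values (lowest and highest correlation 0.747 and 0.975). Promoter sequences and gene positions are those of RefSeq on GRCm38.p6. Plots used matplotlib 3.10.9 in Python 3.11.15.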

Additional observations from a re-analysis of the deposited data

Results flagged for a closer look

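Lcn2 on smoke array 1 lay far from the other smoke arrays, at a log2 level of 3.98, the floor, where the nearest other smoke array was at 8.23. It was the only one of 18 sets of arrays (9 genes in 2 groups) whose gap passed the critical value for its size, set at the 95% level, which chance alone passes now and then. The deposited intensity was 13.9. The same array had the highest actin 3′ to 5′ ratio, 31.6, a Gapdh ratio of 4.76, below every control, and for Ngp, another granule gene, the highest intensity of all arrays, 672.4. The part of RNA integrity in the low Lcn2 value was not tested.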

How the results depend on the processing

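S100a9 kept its direction and call in all 25 alternatives, at log2 changes of -2.20 to -1.85. S100a8, Stfa2l1 and Mmp8 kept their direction and lost the call in 3, 11 and 3 of them. Over single omissions the members that fell numbered 1 to 4, all probe sets that were lower 86 to 155 and those that were higher 1 to 7, against 146 and 3. Lower and higher probe sets numbered 635 and 555 with arrays 1 to 4, 710 and 589 with these and the replicate number as a block, 225 and 16 without smoke arrays 1 and 2, 439 and 200 with the actin ratio, 282 and 60 with array weights, and 769 and 398 by the submitters' rule; 4 members fell in each, or 3 without smoke arrays 1 and 2. Higher probe sets numbered 7 with the Xist level, 6 with the floor at the 25th percentile, 5 with median centring, 13 without the filter, 11 with a stricter filter and 9 as deposited. The difference of Cxcr2 lost its p under 0.05 with arrays 1 to 4 (-0.74), as deposited (-0.92), without smoke arrays 1 and 2 (-1.21) and in the unfiltered fit (-0.97), and in 6 of 10 single omissions (-1.21 to -0.84 over all 10); with the floor at the 25th percentile it was -0.52. The sign turned for Csf3r without control replicate 1 (0.030; single omissions -0.68 to 0.030), for Lcn2 with array weights (0.075), if smoke replicate 1 was left out (0.071; single omissions -1.16 to 0.071) or smoke arrays 1 and 2 were (0.24), and for Ngp, whose change was 0.00, with median centring (-0.070), array weights (-0.22), the actin ratio (-0.016), without smoke arrays 1 and 2 (-0.20) and in 6 single omissions (range of all -0.17 to 0.20). It also turned for Ms4a3 with array weights (-0.19), leaving out smoke replicate 1 (-0.0098; single omissions up to 0.26) or smoke arrays 1 and 2 (-0.16), and for Cxcl1 with array weights (-0.11), without smoke arrays 1 and 2 (-0.13), control replicate 1 (-0.10) or smoke replicate 2 (-0.03; single omissions up to 0.18). The causes were not tested. The replicate number as a block changed no member's call, ended that of Fcgr4 (adjusted p = 0.0559), gave one to Stfa3 (adjusted p = 0.0290, against 0.0943 for the same arrays without it) and Clec4d (0.0191 against 0.112), and no control array correlated best with the smoke array of its own number. S100a8 has no value without _s_at probe sets, nor Camp with the stricter filter. Dim signal limits Cxcr2 and most primary granule genes.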

Other observations

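2 receptors of mature neutrophils that did not pass had larger estimated changes than Fcgr4, and are named here after their values were seen. Il1r2, the decoy receptor for interleukin-1, ranged over intensities of 359.2 to 456.7 (controls) and 12.3 to 199.4 (smoke), without overlap, at a log2 change of -2.57 ± 0.71 (SE; limma, adjusted p = 0.217). Clec4d, a C-type lectin receptor of myeloid cells, ranged over 699.8 to 1772 (controls) and 197.6 to 809.2 (smoke), at -1.76 ± 0.46 (adjusted p = 0.188), with overlap. Clec4d passed without smoke arrays 1 and 2, at -2.19 (adjusted p = 0.0293), with array weights (adjusted p = 0.0209) and adjusting for the actin ratio (adjusted p = 0.0169). Il1r2 passed with the floor at the 25th percentile, at -2.04 (adjusted p = 0.0470), and with arrays 1 to 4 of each group, at -2.49 (adjusted p = 0.0471). Each of these settings also called more of all probe sets than the main test.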
